A study of Mus musculus with 4 samples.

Results

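Smooth muscle cells contract by sliding actin filaments over myosin, and many other cells assemble the same proteins into stress fibres when they spread, are stretched or are grown on plastic. The genes described here are 10 genes of this apparatus, selected by gene symbol among the 55141 genes with TPM: the actins Acta2 and Actg2, the myosin heavy chain Myh11, the myosin regulatory light chain Myl9, the tropomyosins Tpm1 and Tpm2, the transgelins Tagln and Tagln2, and the calponins Cnn1 and Cnn2. They were measured in 4 libraries of cultured articular chondrocytes, the cells of joint cartilage. The 10 genes were put together with the values of these libraries already known, so their own ratios are given as a description and support nothing further. Tagln and Tpm2 also belong to a list that the study chose on the same libraries. Of the 10 genes, 9 had at least 1 read in some library and 8 had at least 20 reads in the 4 libraries together; Myh11 had none and Actg2 had 4 reads in all.

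Chondrocytes were taken from femoral head cartilage of mice that were 3 weeks old, released with 3.5 mg/ml collagenase, and cultured; the strain is given as C57BL/6, or C57BL6/J for the mimic library. There was 1 library for each of 4 conditions. WT is called wild type in the sample labels, whereas the methods describe controls with floxed miR-23a/b clusters, so its genotype is not certain. The Cart-miR-23clus KO mice carry Col2a1-cre and homozygous floxed miR-23a/b clusters (flox/flox), so Cre under the control of Col2a1, a gene of cartilage cells, removes the clusters in chondrocytes. The miR-26a KO chondrocytes (miR-26a -/-) lack miR-26a, and the library miR-26a KO + mimic came from such cells transfected with a miR-26a mimic, a synthetic double-stranded RNA. The labels mention a negative control siRNA for the same treatment, but do not state whether the miR-26a KO library received it. The labels do not say how many mice were pooled in a library.

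The libraries hold single-end reads of 75 bases from the 3′ ends of mRNAs. The reads counted on genes numbered from 1336496 in Cart-miR-23clus KO to 1505805 in WT, and a gene with 0 reads may hold up to 3 reads, or 0.000199% to 0.000224% of a library. With 1 library per condition there was no replicate, no test and no p-value. Levels are TPM, the reads of a gene divided by its length and scaled to the library. Intervals are exact at 95% and were computed from reads scaled by library totals, which puts ratios over WT in Cart-miR-23clus KO 1.02 times higher than TPM does. They hold counting error and no spread between cultures. All 15 markers of the chondrocyte list were above 0 in every library, with a summed level of 13550 to 21420 TPM, highest in WT, and Col2a1, the collagen of cartilage, stood at 5452 to 7062 TPM. All 12 markers of the fibroblast list were above 0 as well, with sums of 11910 to 30010 TPM that exceeded the chondrocyte sum in every library but Cart-miR-23clus KO, and the osteoblast list summed to 2572 to 6425 TPM. The markers thus show chondrocyte genes beside genes of fibroblasts and osteoblasts, and do not single out the labelled cell type. Since these are bulk samples, fewer cells of one type and less RNA per cell cannot be told apart.

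The removed clusters encode miR-23, miR-27 and miR-24, small RNAs that lower mRNAs carrying a match to their seed in the 3′ UTR. The mature sequences are shown because the seed, in capitals (bases 2 to 8), defines the sites searched for in the contractile genes. They came from RefSeq on GRCm38 (miR-23b-3p is named only) except for the mimic, whose sense strand came from the sample labels.
miR-23a-3p: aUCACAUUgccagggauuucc
miR-27a-3p: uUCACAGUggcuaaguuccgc
miR-27b-3p: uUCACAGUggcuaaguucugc
miR-24-3p: uGGCUCAGuucagcaggaacag
miR-26a-5p: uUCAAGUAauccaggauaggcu
miR-26a mimic, sense strand: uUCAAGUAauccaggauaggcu
The miR-27a and miR-27b seeds are identical, and the mimic has the seed of miR-26a-5p.

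The 3′ UTRs of the 10 contractile genes, with a median length of 712 bases against 1260 bases in 10339 genes with at least 20 reads in the 4 libraries together, were searched for matches. The letters sought on the mRNA strand were AATGTGA for miR-23, ACTGTGA for miR-27, CTGAGCC for miR-24 and TACTTGA for miR-26. The 2 matches found are shown with the match in capitals and up to 18 flanking bases.
Cnn2, miR-23: ccctgcactgccagaaAATGTGAaa
Acta2, miR-27: ctgcctctagcacacaACTGTGAac
The match in Cnn2 (chr10:79995301-79995307, plus strand, GRCm38) lies 687 bases after the stop codon in 1 of its 2 annotated UTR isoforms. The match in Acta2 (chr19:34241632-34241638, minus strand) lies 29 bases after the stop codon. Tagln, Tpm1 and Tpm2 held no match of any of the 4 seeds. In all, 1 of 10 contractile genes held a miR-23 match, 1 a miR-27 match, 0 a miR-24 match and 0 a miR-26 match, while 18.4%, 19.1%, 20.7% and 13% of the 10339 genes did; with 10 genes and shorter UTRs nothing is read from these counts. A match is a description of the letters and not a functional site.

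Many contractile genes are controlled by serum response factor, SRF, which binds a DNA element called the CArG box, made of CC, 6 letters that are each A or T, and GG. The element reads the same on both strands. RefSeq gave promoters (250 bases before to 50 after the start) for 7 of the 10 genes; Tagln, Actg2 and Myh11 are named only. An exact CArG box occurred in the promoters of Myl9 and Cnn2, which are shown with the nearest matches of Acta2, each with its 10-base element in capitals.
Myl9: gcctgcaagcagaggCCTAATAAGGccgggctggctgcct
Cnn2: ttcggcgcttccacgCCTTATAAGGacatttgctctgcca
Acta2, first: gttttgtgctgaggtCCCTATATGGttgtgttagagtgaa
Acta2, second: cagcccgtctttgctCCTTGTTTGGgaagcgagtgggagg
The box of Myl9 (chr2:156775303-156775312, plus strand) begins 161 bases before the start and that of Cnn2 (chr10:79988544-79988553, plus strand) 56 bases before it. In Acta2 no exact box was found; elements with 1 letter outside the motif began 84 bases (chr19:34255448-34255457, minus strand) and 34 bases (chr19:34255398-34255407) before the start. Elements of this kind also began 221 and 80 bases before the start of Tpm1 and 99 bases before that of Myl9. Of the 7 genes, 2 held an exact box and 4 an element with at most 1 letter outside it. Of all 32851 promoters, counted by promoter and not by gene, 1.63% and 21.1% did. The genes are few and were picked with their values known, so nothing is read from these counts. The promoters of Tagln2, Tpm1, Tpm2 and Cnn1 held no exact box in this window.

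The transgelins are actin-binding proteins; Tagln (SM22α) is a marker of smooth muscle and of myofibroblasts, and Tagln2 is found in many cells. Tagln (ENSMUSG00000032085, chr9:45929619-45936058, minus strand) had 3 reads in WT, 37 in Cart-miR-23clus KO, against 10 in miR-26a KO and 10 in miR-26a KO + mimic. Its level was 1.80, 24.4, 6.59 and 6.16 TPM in that order. Cart-miR-23clus KO was the highest library, and its interval of 17.2 to 33.7 TPM did not overlap those of the other 3, of which the highest bound was 12.1 TPM. The ratio of Cart-miR-23clus KO to WT was 13.6 (interval 4.41 to 70.5), wide because of the 3 reads in WT. Against miR-26a KO the ratio was 3.71 (1.85 to 8.56) and against the mimic library 3.97 (1.97 to 9.10), so the size of the difference depended on the library taken as reference. The miR-26a KO and WT libraries together had fewer than 20 Tagln reads and were not compared; their ratio was 3.66 (0.944 to 20.7).

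Exons of Tagln overlap those of Pcsk7, a protease gene, and of Gm48529, both on the opposite strand, and 34 of the 326 stretches of 75 bases in the last 400 bases of its transcript also occur in Pcsk7. Whether reads were counted by strand is not given in the sources used here. Pcsk7 had 43 reads in WT, 21 in Cart-miR-23clus KO, against 23 in miR-26a KO and 27 after addition of the mimic, highest where Tagln was lowest. The part of this overlap in the Tagln values was not tested. No other contractile gene had an exon overlapping another gene or a shared stretch of 75 bases in its last 400 bases.

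Tagln2 (ENSMUSG00000026547, chr1:172500047-172507380, plus strand) had 432 reads in WT, 374 in Cart-miR-23clus KO, against 404 in miR-26a KO and 575 in miR-26a KO + mimic. In TPM this was 376, 358, 386 and 513. The mimic library stood above the rest, with a ratio of 1.33 to miR-26a KO (1.18 to 1.52), and the ratio of Cart-miR-23clus KO to WT was 0.953 (0.848 to 1.13). Of the reads of the transgelin family (Tagln, Tagln2 and Tagln3), Tagln made up 0.686% in WT (exact binomial interval 0.142% to 1.99%), 9.00% in Cart-miR-23clus KO (6.42% to 12.2%), against 2.40% in miR-26a KO (1.16% to 4.38%) and 1.70% after addition of the mimic (0.818% to 3.11%). Tagln2 thus remained the abundant transgelin of these cultures, at 91.0% or more of the family in each library.

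Acta2, smooth muscle α-actin, gives myofibroblasts their contractile stress fibres. Acta2 (ENSMUSG00000035783, chr19:34241090-34255590, minus strand) had 321 reads in WT, 596 in Cart-miR-23clus KO, against 292 in miR-26a KO and 405 in miR-26a KO + mimic, or 151, 309, 151 and 196 TPM. WT and miR-26a KO were nearly equal, with a ratio of 0.999 (0.851 to 1.18), and Cart-miR-23clus KO was the highest library. Its ratio was 2.04 to WT (1.83 to 2.41), 2.05 to miR-26a KO (1.82 to 2.42) and 1.58 to the mimic library (1.41 to 1.83). The mimic library was itself above miR-26a KO with a ratio of 1.30 (1.12 to 1.52).

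Among the reads of the 6 actin genes, Acta2 made up 5.89% in WT (5.28% to 6.55%), 12.9% in Cart-miR-23clus KO (12.0% to 13.9%), against 6.01% in miR-26a KO (5.36% to 6.72%) and 8.05% after addition of the mimic (7.31% to 8.84%). Actb, the cytoplasmic β-actin, held the rest almost alone, with 86.5% to 93.8%. Actg2, the γ-actin of enteric smooth muscle, had 0, 2, 0 and 2 reads in the same order, which is at or under the floor of 3 reads, so no ratio is given. Actg1 had only 10 to 16 reads per library. Cytoplasmic actins have many near-identical pseudogene copies. The counts of Actg1 and Actb may be uncertain for that reason, which was not tested.

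**Figure D1:**
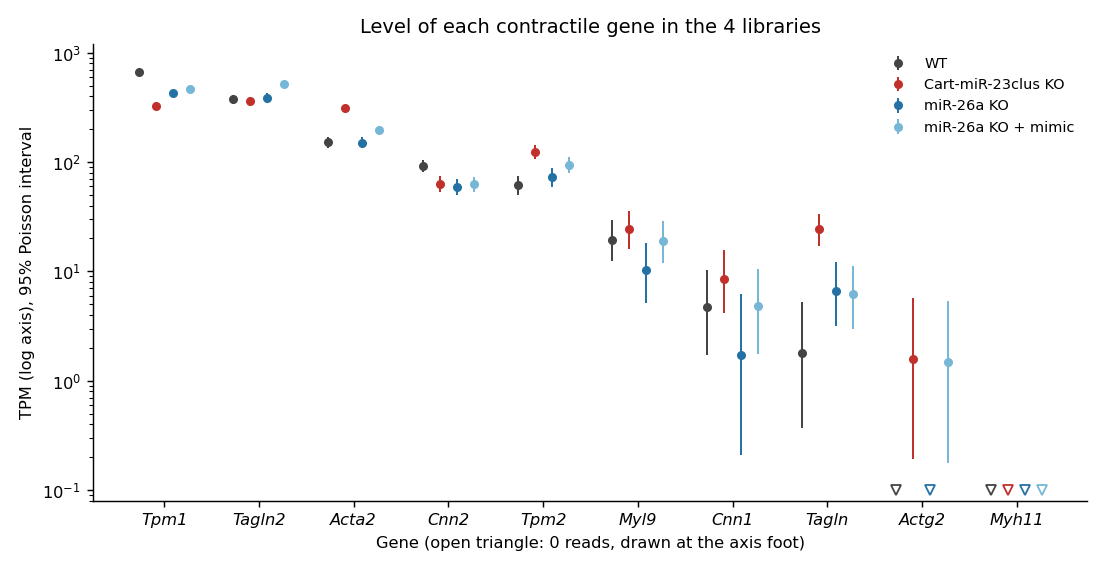
Level of each of the 10 genes in TPM on a log axis, by library, with exact 95% Poisson intervals on reads; each point is 1 library and open triangles stand for 0 reads. Tagln was 24.4 TPM in Cart-miR-23clus KO and 1.80 to 6.59 TPM in the other libraries, while Tpm1 was highest in WT at 659 TPM.

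Myosin II pulls on actin when its regulatory light chain is phosphorylated; Myl9 is the form of this light chain in smooth muscle and stress fibres, and Myh11 is the heavy chain of smooth muscle. Myl9 (ENSMUSG00000067818, chr2:156775420-156781658, plus strand) had 23 reads in WT, 26 in Cart-miR-23clus KO, against 11 in miR-26a KO and 22 in miR-26a KO + mimic, or 19.5, 24.3, 10.2 and 19.2 TPM. The miR-26a KO library was the lowest and the other 3 were close together. The ratio of Cart-miR-23clus KO to WT was 1.25 (0.700 to 2.34), and the ratio to miR-26a KO was 2.37 (1.16 to 5.44). The ratio of miR-26a KO to WT was 0.525 (0.231 to 1.12), and that of the mimic library to miR-26a KO was 1.87 (0.874 to 4.30); both intervals included 1. Myh11 (ENSMUSG00000018830, chr16:14194535-14291372, minus strand) had 0 reads in all 4 libraries.

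Tropomyosins are coiled coils that lie along the actin filament and control the access of myosin; Tpm1 and Tpm2 include the forms of muscle and stress fibres. The 2 genes differed in opposite directions between Cart-miR-23clus KO and WT. Tpm1 (ENSMUSG00000032366, chr9:67022590-67049406, minus strand) had 1180 reads in WT, 531 in Cart-miR-23clus KO, against 693 in miR-26a KO and 812 in miR-26a KO + mimic, or 659, 326, 425 and 465 TPM. WT was the highest library and its interval of 622 to 698 TPM did not overlap the others. The ratio of Cart-miR-23clus KO to WT was 0.496 (0.458 to 0.563), that of miR-26a KO to WT 0.645 (0.587 to 0.710), and that of the mimic library to WT 0.706 (0.650 to 0.779). All 3 modified cultures were thus below WT, which is a single library shared by these ratios. The annotation gives Tpm1 21 transcripts, and gene totals do not separate them.

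Tpm2 (ENSMUSG00000028464, chr4:43514711-43523765, minus strand) had 99 reads in WT, 183 in Cart-miR-23clus KO, against 107 in miR-26a KO and 148 in miR-26a KO + mimic, or 61.3, 125, 72.8 and 94.1 TPM. Cart-miR-23clus KO was the highest library, although its interval of 107 to 144 TPM overlapped that of the mimic library at 79.5 to 110 TPM. The ratio to WT was 2.03 (1.62 to 2.69), to miR-26a KO 1.71 (1.38 to 2.25) and to the mimic library 1.33 (1.08 to 1.69). The ratio of the mimic library to miR-26a KO was 1.29 (1.01 to 1.68).

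The composition of the tropomyosin reads differed accordingly. Tpm1 held 57.1% of the reads of Tpm1, Tpm2, Tpm3 and Tpm4 in WT (54.9% to 59.3%), 40.7% in Cart-miR-23clus KO (38.0% to 43.4%), against 48.0% in miR-26a KO (45.4% to 50.6%) and 48.0% after addition of the mimic (45.6% to 50.4%). Tpm2 held 4.79% (3.91% to 5.80%), 14.0% (12.2% to 16.0%), 7.40% (6.11% to 8.88%) and 8.75% (7.44% to 10.2%) in the same order. Tpm4, a tropomyosin of non-muscle cells, held from 27.1% to 31.3%, and Tpm3 from 11.0% to 15.8%. The share of Tpm2 was therefore lowest in WT and highest in Cart-miR-23clus KO, with no overlap between the interval of Cart-miR-23clus KO and any other.

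**Figure D2:**
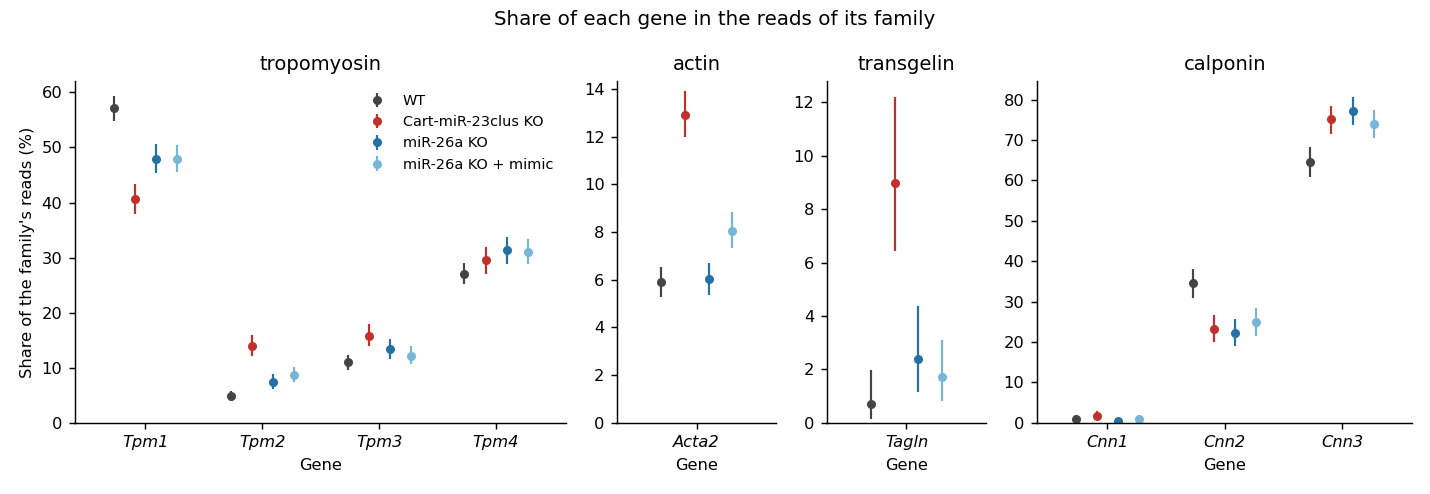
Share of single genes in the reads of their family (percent, one panel per family, each with its own axis from 0), by library, with exact 95% binomial intervals. Tpm2 was 14.0% of tropomyosin reads, Acta2 12.9% of actin reads and Tagln 9.00% of transgelin reads in Cart-miR-23clus KO, above the intervals of the other libraries, while Cnn2 was highest in WT at 34.5% of calponin reads.

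Calponins bind actin and slow myosin; Cnn1 is the form of differentiated smooth muscle, and Cnn2 and Cnn3 are broader. Cnn1 (ENSMUSG00000001349, chr9:22099216-22109630, plus strand) had 6, 10, 2 and 6 reads in WT, Cart-miR-23clus KO, the miR-26a KO and the mimic library, or 4.69, 8.60, 1.72 and 4.81 TPM, too few to compare. Cnn2 (ENSMUSG00000004665, chr10:79988584-79996062, plus strand) had 238, 147, 139 and 158 reads, or 92.6, 63.0, 59.4 and 63.1 TPM. WT was the highest library, and the 3 modified cultures were alike within their intervals. The ratio to WT was 0.680 in Cart-miR-23clus KO (0.564 to 0.860), against 0.641 in miR-26a KO (0.517 to 0.795) and 0.681 after addition of the mimic (0.558 to 0.843). Cnn2 made up 34.5% of calponin reads in WT (30.9% to 38.2%) and 23.2% in Cart-miR-23clus KO (20.0% to 26.7%), with Cnn3 at 64.6% and 75.2%.

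Per length, the order of the levels in WT was Tpm1, Tagln2, Acta2, Cnn2, Tpm2, Myl9, Cnn1 and Tagln, and only the last pair had overlapping intervals. In Cart-miR-23clus KO the order was Tagln2, Tpm1, Acta2, Tpm2, Cnn2, Tagln, Myl9, Cnn1 and Actg2, and the first 3 overlapped with their neighbours, as did Tagln with Myl9 and Cnn1 with Actg2. Tpm2 stood above Cnn2 in Cart-miR-23clus KO and below it in WT, in both cases without overlap. By reads alone, Acta2 with 596 reads was first in Cart-miR-23clus KO, ahead of Tpm1 and Tagln2. Division by length raises short genes in 3′ end libraries, where a transcript gives reads at 1 end only, so both orders are given.

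In the comparison of Cart-miR-23clus KO with WT, 7 of the 10 genes had at least 20 reads in the 2 libraries together. Tagln, Acta2 and Tpm2 had a TPM ratio above 2, and Tpm1 a ratio below 0.5. Over all 9573 genes with as many reads, 4.73% were above 2 and 4.38% below 0.5; since the genes were chosen with these ratios known, nothing is read from the counts. Acta2 and Tpm2 lay just above 2 and Tpm1 just below 0.5 at 0.496, and Tpm1 was not below 0.5 when reads were scaled by library totals. The intervals of 3 genes lay above 1, those of Tpm1 and Cnn2 below 1, and those of Tagln2 and Myl9 included 1; over all genes, 13.1% of intervals lay above 1 and 10.7% below. With 0.5 TPM added to each level, the median log2 ratio reached 0.56 over the 8 genes with at least 20 reads in the 4 libraries together and -0.01 over all 11049 such genes. Against the mimic library in place of WT, which was added after the values were seen, Tagln alone was above 2 and no gene was below 0.5.

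**Figure D3:**
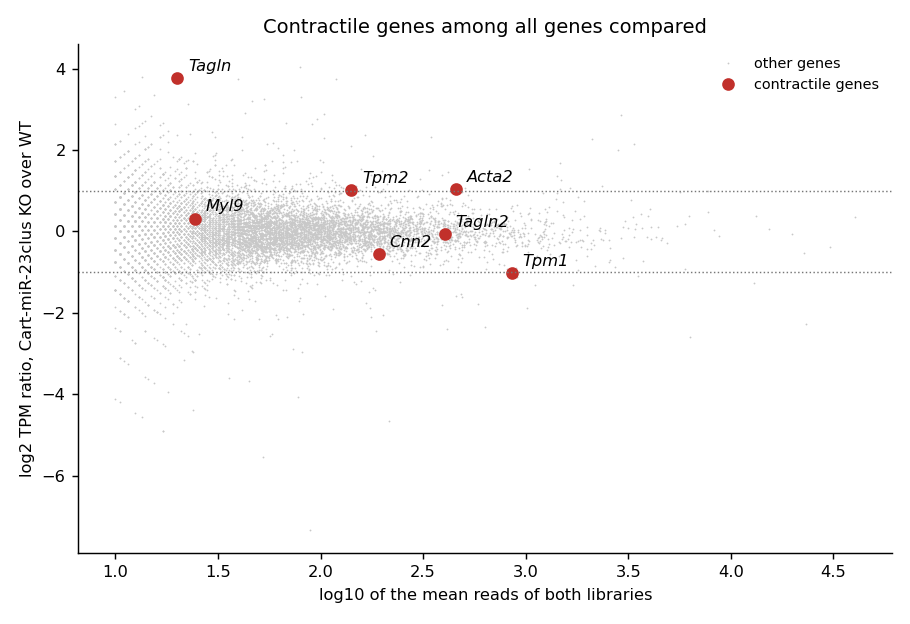
The log2 of the TPM ratio (Cart-miR-23clus KO over WT) against the log10 of the mean reads of the 2 libraries, for genes with at least 20 reads together and reads in both (grey) and the 7 contractile genes among them (red); dotted lines mark 2-fold. Acta2, Tpm2 and Tpm1 lay close to the 2-fold lines at high read numbers, and Tagln far above them at low read numbers.

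In the comparison of miR-26a KO with WT, 6 genes could be compared, and 0 were above 2 and 0 below 0.5, with 3.88% and 3.5% of all 9545 genes. The intervals of Tpm1 and Cnn2 lay below 1 and no interval lay above 1, with 8.55% and 11.2% of all genes. The median log2 ratio was -0.32 over the 8 genes, against 0.03 over all genes. Adding the miR-26a mimic to miR-26a KO gave 0 of 7 genes above 2 and 0 below 0.5, with 1.89% and 1.46% of all 9471 genes. The intervals of Tagln2, Acta2 and Tpm2 lay above 1 there, with ratios of 1.29 to 1.33, and 0 lay below 1, with 5.45% and 4.77% of all genes. The median was 0.37 against -0.01 over all genes. Between the knockouts, Cart-miR-23clus KO over miR-26a KO, Tagln, Acta2 and Myl9 were above 2 among 7 genes and 0 were below 0.5, with 3.99% and 3.43% of all 9453 genes, and the median was 0.90 against -0.04. By intervals, 4 genes lay above 1 and 1 below, with 9.39% and 9.24% of all genes. This comparison shares the Cart-miR-23clus KO library with the first, and the comparisons with miR-26a KO share that library, so they are not separate evidence.

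**Figure D4:**
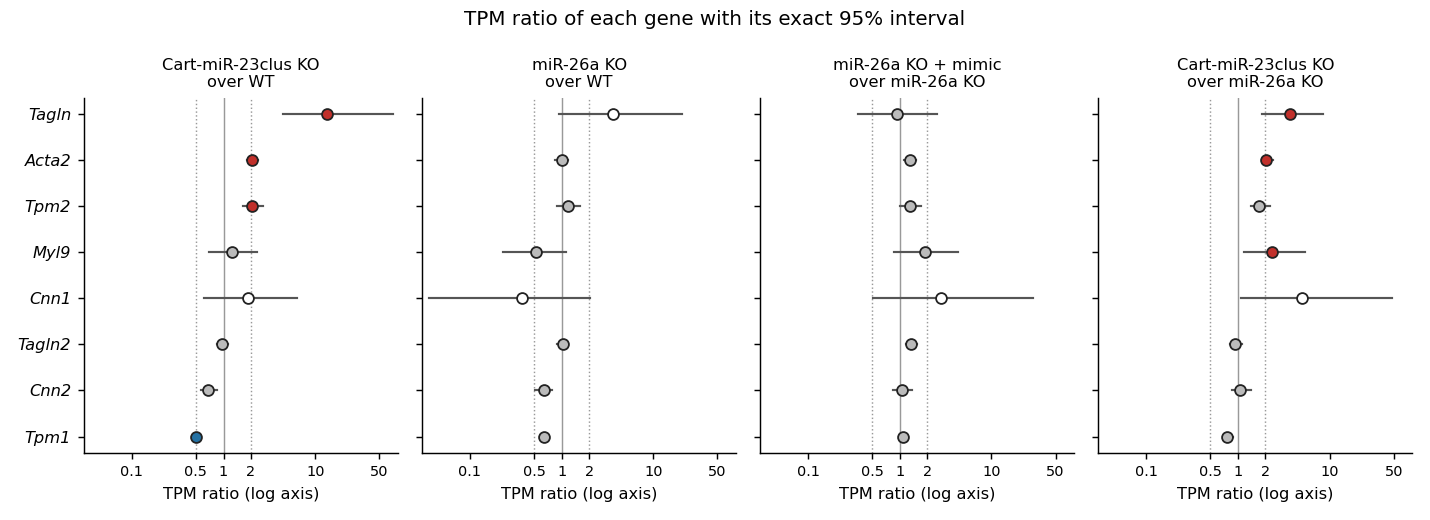
TPM ratio of 8 contractile genes in the 4 comparisons on a log axis, with exact 95% intervals on reads. Red points are above 2, blue below 0.5, grey within, and open points had fewer than 20 reads in the 2 libraries together; the ratio of Tagln to WT was 13.6 in Cart-miR-23clus KO, and no compared gene passed 2-fold in the 2 comparisons within the miR-26a libraries and WT.

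The wider actomyosin list held 55 further genes of the same apparatus, of which 45 had at least 20 reads in the 4 libraries together. In Cart-miR-23clus KO over WT, 0 of the 45 compared were above 2 and 3 were below 0.5, with 4.73% and 4.38% of all genes, and the median log2 ratio was -0.08. These counts past 2-fold are near those shares. By intervals, 6 of the 45 genes lay above 1, 11 below 1 and 28 included 1, with 13.1% above and 10.7% below over all genes. The share below 1 was thus larger in the list than over all genes, a difference that was not tested. Among genes with 20 or more reads in both libraries, the largest ratios belonged to Csrp1 (1.46, 1.11 to 2.02), Nexn (1.45, 0.913 to 2.42) and Csrp2 (1.43, 0.969 to 2.22). These encode proteins of actin bundles and Z-discs. The smallest belonged to Fhl1, a LIM protein of muscle (0.409, 0.299 to 0.580), Pdlim7 (0.599, 0.414 to 0.901) and Zyx, the focal adhesion protein zyxin (0.667, 0.495 to 0.936).

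By role, the 2 other actins compared had a median of -0.14, the other tropomyosins Tpm3 and Tpm4 -0.20, the 7 non-muscle myosins and light chains -0.10, the 14 crosslinkers and focal adhesion genes -0.15 and the 8 smooth muscle accessory genes 0.04. None of these groups had a gene above 2. Below 0.5 were 2 of the 7 myosins and light chains and 1 of the 8 smooth muscle accessory genes, with 4.38% of all genes. Since the 10 contractile genes were chosen with their ratios known, nothing is read from their contrast with the wider list.

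In miR-26a KO over WT the wider list had 1 gene above 2 and 1 below 0.5 of 45, with 3.88% and 3.5% of all genes, and a median of -0.01. Pdlim1, a LIM protein of stress fibres, was at 2.00 (1.30 to 3.14), Rock1 at 1.40 (1.15 to 1.69) and Csrp1 at 1.30 (0.960 to 1.78), and Pdlim7 at 0.528 (0.349 to 0.788), Fhl2 at 0.603 (0.488 to 0.745) and Fhl1 at 0.620 (0.465 to 0.823). With the mimic over miR-26a KO, Pdlim7 was at 1.60 (1.06 to 2.47), Mrtfa, an SRF cofactor, at 1.46 (0.968 to 2.26) and Pdlim5 at 1.45 (1.06 to 2.02), and Fhl1 at 0.710 (0.502 to 1.01), Flnc at 0.734 (0.403 to 1.34) and Myh10 at 0.783 (0.473 to 1.30). The median of the list was -0.01 there, and 1 of 45 genes was above 2 and 1 below 0.5, with 1.89% and 1.46% of all genes. In Cart-miR-23clus KO over miR-26a KO, Nexn was at 2.10 (1.24 to 3.88), Csrp2 at 2.04 (1.31 to 3.41) and Fhl2 at 1.59 (1.31 to 2.02), and Fhl1 at 0.660 (0.467 to 0.971), Zyx at 0.662 (0.489 to 0.933) and Pdlim1 at 0.695 (0.471 to 1.07). The list's median was -0.11, and 2 of 44 genes were above 2 and 0 below 0.5, with 3.99% and 3.43% of all genes.

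**Figure D5:**
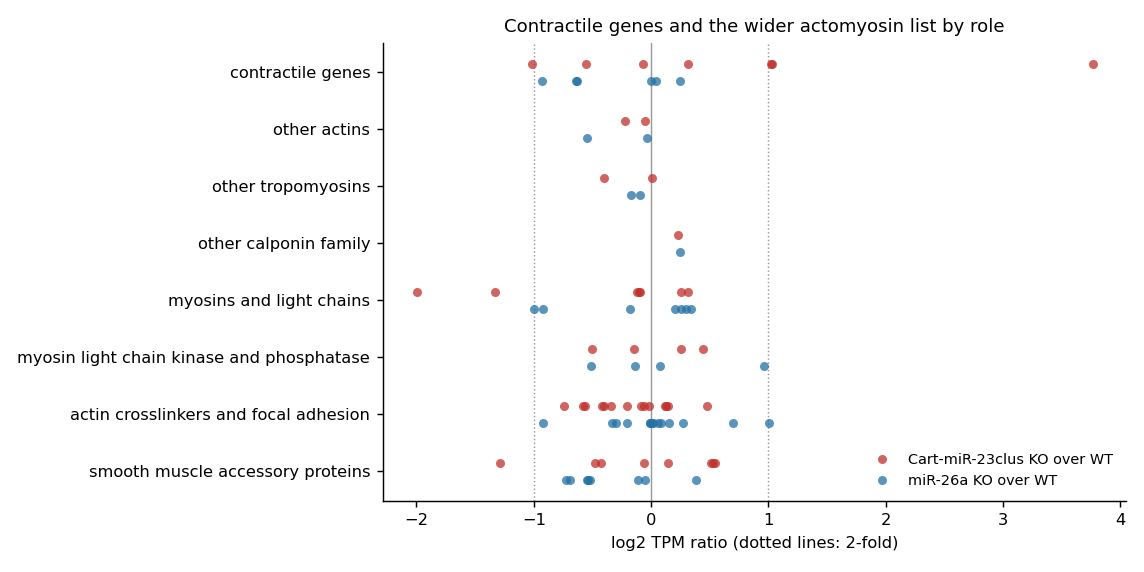
The log2 TPM ratio of each compared gene of the contractile set and of 7 role groups of the wider actomyosin list, for Cart-miR-23clus KO over WT (red) and miR-26a KO over WT (blue); each point is 1 gene and dotted lines mark 2-fold. In red, the points right of 2-fold are Tagln, Acta2 and Tpm2, and the medians of the other groups lie between -0.20 and 0.23.

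Tagln, Acta2, Cnn1 and Myh11 also mark smooth muscle and pericytes, so markers of such cells were read in the same libraries. Of the 13 genes of the smooth muscle and pericyte list, 6 to 7 were at 0 in each library; Myocd, the smooth muscle cofactor of SRF, and Rgs5, a pericyte gene, were at 0 in all 4. The summed level of the list was 112 TPM in WT, 76.8 in Cart-miR-23clus KO, against 92.3 in miR-26a KO and 102 after addition of the mimic, lowest in Cart-miR-23clus KO. Most of it came from 3 genes that are not limited to these cells. Smtn, the most abundant on average, was at 36.2, 25.9, 34.9 and 37.7 TPM in that order, Cspg4 at 43.5, 18.6, 28.7 and 36.9 TPM, and Pdgfrb at 30.5, 29.6, 27.0 and 26.3 TPM. Other genes of the list went the other way on few reads: Abcc9 had 0 reads in WT and 4 in Cart-miR-23clus KO, Notch3 had 0 and 3, and Lmod1 had 1 and 3. The skeletal muscle list summed to 7.20 to 14.5 TPM with 8 to 9 of 13 genes at 0. Its most abundant gene on average, Mylpf, had 1 to 4 reads. Acta1, the actin of skeletal muscle, had 2 reads in WT, 10 in Cart-miR-23clus KO, against 1 in miR-26a KO and 3 with the mimic, and was thus highest in the same library as Tagln and Acta2. The endothelial list, in which Emcn led with 1 read in miR-26a KO, summed to 0 to 0.406 TPM, with 5 or 6 of its 6 genes at 0.

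The summed levels of other marker lists differed between the libraries, which does not show how many cells of a type were present. The fibroblast list, led by Col1a2, summed to 30010 TPM in WT, 11910 in Cart-miR-23clus KO, against 23780 in miR-26a KO and 22000 after addition of the mimic, with 12 of 12 genes above 0 in each. The osteoblast list, led by Ibsp on average and by Spp1 in Cart-miR-23clus KO, summed to 6425, 2572, 4001 and 4363 TPM, with 1, 3, 1 and 1 of 9 genes at 0. Both sums were lowest in Cart-miR-23clus KO, the library with the highest Tagln, Acta2 and Tpm2. Single genes did not all follow the sums. Of the 12 fibroblast genes, 4 were higher and 8 lower in Cart-miR-23clus KO over WT. In miR-26a KO over WT, 5 were higher and 7 lower. Of 7 osteoblast genes with at least 20 reads in the 4 libraries together, 1 was higher and 6 lower in Cart-miR-23clus KO over WT. The macrophage list, led by Lyz2, summed to 1073, 1319, 392 and 726 TPM, with 1 of 10 genes at 0 in miR-26a KO and none in the rest. Of its 9 genes compared in Cart-miR-23clus KO over WT, 7 had intervals that included 1. The cell cycle list, led by Birc5, summed to 198 TPM in WT and 367 to 394 TPM in the 3 modified cultures, with 12 of 12 genes above 0; it was thus lowest in WT, as Tpm1 and Cnn2 were highest there. The part of these differences in the values of the contractile genes was not tested.

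The genes with the pattern most like that of Tagln were sought among 8933 other genes with at least 50 reads in the 4 libraries together, by the Euclidean distance between log2(TPM + 0.5) values centred on their mean over the 4 libraries. The nearest was Dlk1 at a distance of 0.465, with 18, 220, 80 and 69 reads in WT, Cart-miR-23clus KO, the miR-26a KO and the mimic library. It was followed by Icam1 (0.556, with 27, 166, 51 and 54 reads), Mustn1 (0.594, with 5, 40, 20 and 16 reads), Kitl (0.656, with 3, 37, 7 and 13 reads) and Serpina3n (0.788, with 11, 95, 49 and 52 reads). All 5 were lowest in WT and highest in Cart-miR-23clus KO, as Tagln was. They were chosen by nearness to Tagln in these same libraries, so this shared order is largely set by the choice. Of the contractile genes, Tpm2 ranked at 210 (distance 1.74) and Acta2 at 213 (1.75), whereas Tpm1 ranked at 8579 (3.15) and Cnn2 at 7645 (2.83). With 4 libraries and few Tagln reads this likeness is a description of these libraries.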

How the data were processed

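The authors prepared QuantSeq 3′ mRNA libraries (FWD) from TRIZOL RNA, read 75 bases single-end, applied no quality filter and mapped to mm10 (GRCm38.p6 is also named in the submitters' processing notes); aligner, counter and strand setting are not given in the sources used here. They deposited estimated counts, whole reads per gene without normalization, for 3 libraries, and TPM for 4. Reads of the mimic library were recovered from its TPM steps: 14250 of 14250 values tested were within 0.05 of whole reads, and 588 genes were not recovered. Genes without TPM (309) held 0.480% to 0.633% of reads.

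The genes and lists were chosen with earlier results of these data known. Named are the 10 genes; per comparison the 3 largest and 3 smallest ratios of the wider list with at least 20 reads in each library; the 5 genes nearest Tagln; and each marker list's most abundant gene. One role group of the wider list is not reported here. Ratios are of deposited TPM, with exact Clopper-Pearson 95% intervals on reads (library totals over shared genes as offset; tested on simulated data). The fold limit was 2. Alternatives were CPM, TMM, DESeq2 size factors, other filters, folds, pseudocounts and 99% intervals. Positions and UTRs of at least 50 bases came from GENCODE M21 (GRCm38). Python 3.11.15, scipy 1.17.1, R 4.3.3, edgeR 4.0.16 and DESeq2 1.42.0 were used.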

Additional observations from a re-analysis of the deposited data

How the results depend on the processing

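No paired analysis was possible because there was 1 library for each condition. With scaling by library totals (CPM), 0 genes were below 0.5 in Cart-miR-23clus KO over WT, since Tpm1 passed just above the limit. With the mimic library as denominator there, an alternative chosen after seeing the data, 1 gene was above 2 (Tagln) and 0 below 0.5. With the filter of TPM above 0 in both libraries, 1 gene was above 2 (Tagln) and 1 below 0.5 (Cnn1) in miR-26a KO over WT, and 1 was above 2 (Cnn1) in miR-26a KO + mimic over miR-26a KO, all from 10 or fewer reads in each library. With at least 20 reads in each library, Tagln was no longer compared; 2 genes (Acta2 and Tpm2) were then above 2 in Cart-miR-23clus KO over WT and 1 (Acta2) in Cart-miR-23clus KO over miR-26a KO, where Myl9 was not compared either. At 1.5-fold, 3 genes were below the limit in miR-26a KO over WT (Myl9, Tpm1 and Cnn2) and 1 was above it in miR-26a KO + mimic over miR-26a KO (Myl9). Without the filter on reads, which adds Myh11 and Actg2, the median of miR-26a KO over WT was -0.001. The other 25 counts above 2 and 26 counts below 0.5 stayed within 1.5 times the count reported. These 25 include the count of 2 genes (Acta2 and Tpm2) given above for Cart-miR-23clus KO over WT. The other 19 medians stayed within 0.25 (log2) of the median reported. No ratio of the contractile genes whose interval excluded 1 turned its direction under CPM, TMM or DESeq2 size factors. At 99%, the intervals of Tpm2 in miR-26a KO + mimic over miR-26a KO (0.933 to 1.82) and Myl9 in Cart-miR-23clus KO over miR-26a KO (0.945 to 7.05) included 1.

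Depth and the single library per condition limit these values: Tagln in WT rests on 3 reads, Cnn1 and Actg2 were at 10 reads or fewer in every library, and no spread between cultures is known. Gene totals do not separate transcripts.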
